A study of Mus musculus with 4 samples.

Results

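This account covers 36 genes of cholesterol and fatty acid metabolism, read across all the libraries of the series. They were chosen by name and fall into 3 arms: 21 genes of sterol synthesis and its control, 10 genes of fatty acid synthesis, and 5 genes of cholesterol export. Each of the 36 symbols matched a row of the 27179 gene rows, and 34 had enough counts to be tested, all 21 of the sterol arm, all 10 of the fatty acid arm and 3 of the export arm. The cells were mAEC, a line of murine aortic endothelial cells, which line large arteries. The control group was kept in its usual medium. The other group, called conditioned medium here, was given culture supernatant taken from macrophages described as positive for the cytokine TNFα and the macrophage marker CD68. Each group had 2 libraries, which the series calls biological replicates. Nothing in the labels says whether they were separate cultures, so the p-values measure the spread between these libraries, which may be technical. The control medium had not been on macrophages, so macrophage products and other differences between used and fresh medium cannot be told apart. The labels do not state the time of exposure, the amount of supernatant or the source of the macrophages.

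Cells make cholesterol from acetyl-CoA by way of mevalonate, isoprenoid diphosphates, squalene and lanosterol. The transcription factor SREBP2, encoded by Srebf2, drives the genes of this route when membrane sterol is low: the escort protein SCAP then carries it from the endoplasmic reticulum to the Golgi, where it is cleaved and released to the nucleus. INSIG proteins hold SCAP back when sterol is plentiful. SREBP1, encoded by Srebf1, mainly drives fatty acid synthesis. The liver X receptors (LXRs) sense oxidised sterols and switch on the export pumps ABCA1 and ABCG1, and also Srebf1. Endothelial cells receive most of their lipid from the blood, and ABCG1 and ABCA1 limit cholesterol build-up in them.

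Some of the synthesis genes were higher in conditioned medium, and none of the 3 export genes tested was called. Of 21 sterol genes 8 rose, and of 10 fatty acid genes 5 rose, in edgeR's quasi-likelihood test at an adjusted p under 0.05. No member of either arm fell in edgeR, DESeq2 or limma-voom, and 0 fell at an unadjusted p under 0.05. Over all 13897 genes tested, 16.8% were called in either direction, 8.53% higher and 8.23% lower. The 8 sterol genes are 38.1% of their arm and the 5 fatty acid genes 50% of theirs. Of the 3 export genes tested, 0 were called by edgeR, DESeq2 or limma-voom, and 1 (Nr1h2) had an unadjusted p under 0.05. The median log2 fold change, conditioned medium over control, was 0.20 in the sterol arm, 0.14 in the fatty acid arm and 0.05 in the export arm, against 0.00 over all genes tested. Lists were not tested against each other. With only 3 genes tested, 0 calls in the export arm cannot set it apart from the share over all genes.

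Both libraries of each group placed the synthesis arms alike. Relative to the control mean, the median sterol gene stood at -0.01 and 0.01 on the log2 scale in the control libraries and at 0.22 and 0.23 in the conditioned medium libraries. For the fatty acid arm the same medians were -0.01 and 0.01 against 0.17 and 0.13, and for the export arm -0.02 and 0.02 against 0.04 and 0.07. Centring on the mean of 2 controls makes the control medians equal and opposite by construction, so only their size carries information. In 13 of 21 sterol genes and 6 of 10 fatty acid genes both conditioned medium libraries lay above both controls, as in 28.5% of all genes tested. In 1 sterol gene (Ebp) and 1 fatty acid gene (Elovl6) both lay below, as in 28.8% of all genes. Summed over members, the sterol arm took 499.8 and 501 CPM (counts scaled to library size, by the TMM method) in control and 597 and 598 CPM in conditioned medium. The fatty acid arm took 1597 and 1602 against 1904 and 1886 CPM, and the export arm 222 and 227 against 232 and 236 CPM.

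**Figure D1:**
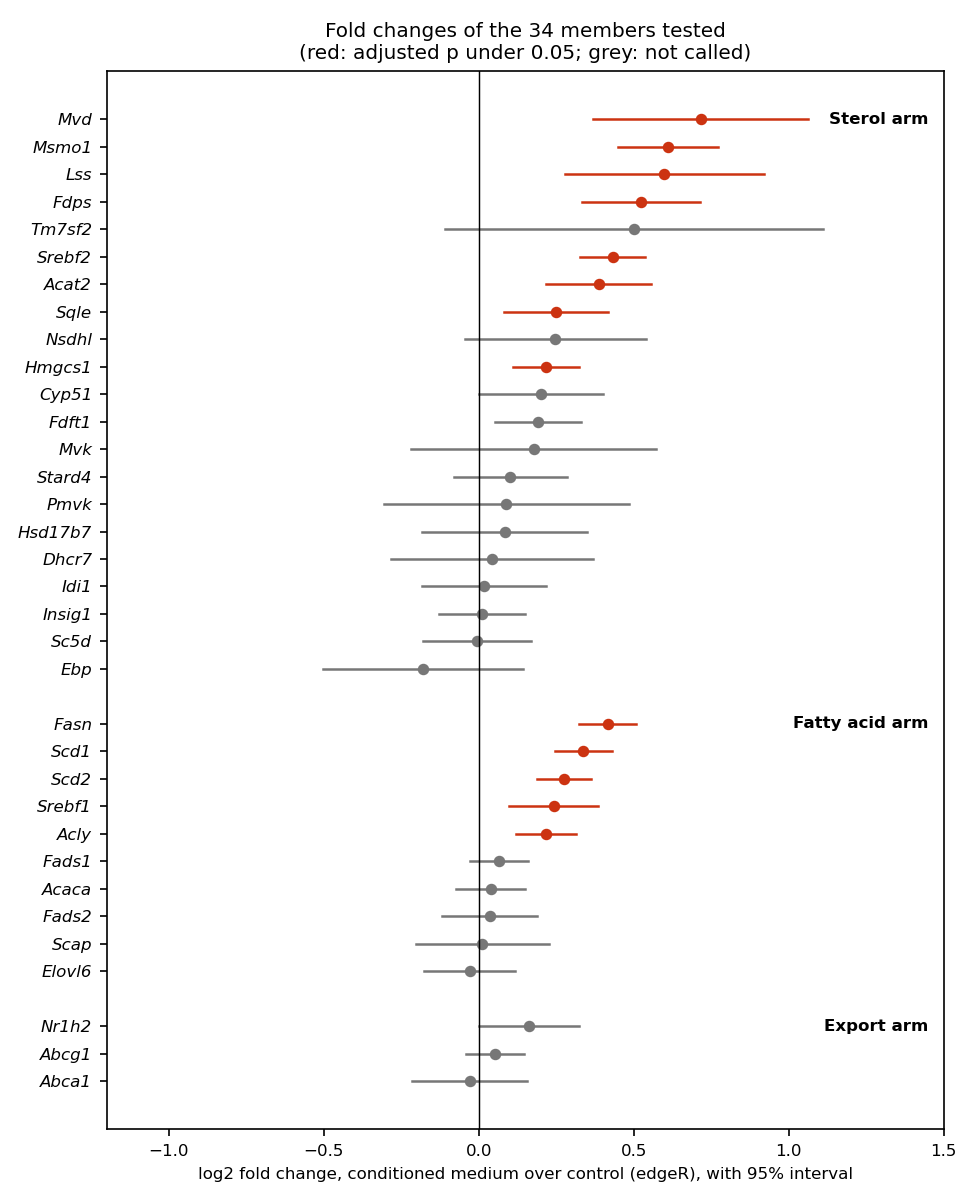
Log2 fold change (x axis, conditioned medium over control, edgeR) of each of the 34 members tested, with its 95% interval as a bar, grouped by arm and ordered by size; red points passed an adjusted p of 0.05 and grey points did not. The 13 red points all lie right of 0 and none is in the export arm.

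Sizes were modest, and several calls depended on the libraries used. The largest rise among members was 1.64-fold (Mvd) and the smallest that passed was 1.16-fold (Hmgcs1 and Acly). Msmo1, Srebf2, Fdps, Fasn, Scd1 and Scd2 stayed called in all 13 alternatives. The other 7 each lost the call at least once. DESeq2 called 4 sterol and 4 fatty acid genes. Without conditioned medium replicate 1 edgeR called 3 and 3, and without conditioned medium replicate 2 it called 4 and 3 (in both fits only the controls give a spread).

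The mevalonate part of the route, from acetyl-CoA to farnesyl diphosphate, had 4 of 7 genes called, all higher. Acat2, the cytosolic thiolase that joins acetyl-CoA units, read 30.3 and 29.0 CPM in control and 41.8 and 36.1 CPM in conditioned medium, or 1.31-fold higher (0.39 ± 0.08 on the log2 scale, SE; edgeR adjusted p = 0.00207). Its groups did not overlap, but the gap inside the conditioned medium pair was wider than that inside the control pair. Without conditioned medium replicate 1 Acat2 was not called (adjusted p = 0.106, alternatives from 1.88e-05 to 0.106). Hmgcs1, the cytosolic HMG-CoA synthase that makes the precursor of mevalonate, read 85.7 and 88.2 CPM against 101 and 101 CPM. That was 1.16-fold higher (0.22 ± 0.05 on the log2 scale; edgeR adjusted p = 0.00522), with both pairs close together. Hmgcs1 was not called in DESeq2 or without either conditioned medium library (adjusted p from 6.70e-04 to 0.119 over its alternatives). The kinases that phosphorylate mevalonate were not called. Mvk had 69 and 75 counts in control and 89 and 87 in conditioned medium, and Pmvk 61 and 73 against 65 and 90. For both the groups overlapped once scaled to library size, and at these counts their 95% intervals were wide, from -0.22 to 0.57 and from -0.31 to 0.49 on the log2 scale.

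Mvd, the decarboxylase that turns mevalonate diphosphate into the basic isoprene unit, had the largest log2 fold change of all members, 0.72 ± 0.17 (edgeR adjusted p = 0.00484). It rested on 67 and 90 control counts and 125 and 155 conditioned medium counts, or 4.54 and 6.16 against 9.03 and 8.60 CPM. Both conditioned medium libraries were above both controls, and the controls differed from each other. Mvd was not called in DESeq2 or without either conditioned medium library (adjusted p from 4.45e-05 to 0.0829 over its alternatives). Idi1, the isomerase of the next step, read 18.4 and 18.4 CPM against 18.5 and 18.6 CPM (fold change 1.01, 95% interval 0.880 to 1.16). Fdps, which builds farnesyl diphosphate for sterols and for protein prenylation, read 18.2 and 17.0 against 25.5 and 25.1 CPM, a rise of 1.44-fold (0.52 ± 0.09 on the log2 scale; edgeR adjusted p = 3.94e-04). In this stretch genes that rose by over 1.4-fold thus sit beside neighbours, Idi1 among them, that were not called.

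Promoter sequence is shown for 4 sterol genes and 1 fatty acid gene, because most sterol promoters share a short box that the choice of members did not use. Sequences are RefSeq's for GRCm38.p6, the build called mm10, read 5′ to 3′ on the gene's own strand. Each stretch of 150 bases overlaps no annotated exon. The bases just after the start lay in a GENCODE M21 transcript of the same gene for each of them but Hmgcs1. Capitals mark CCAAT in either orientation (the box bound by the factor NF-Y, read as ATTGG on the other strand) and, in Hmgcs1, the sterol regulatory element TCACNCCAC, the site SREBPs bind. Hmgcs1 (chr13:119690201-119690350, plus strand), Mvd (chr8:122443423-122443572, minus strand) and Srebf2 (chr15:82147019-82147168, plus strand) rose. Ebp (chrX:8193563-8193712, minus strand) was not called, and Acly (chr11:100528001-100528150, minus strand) is a fatty acid gene that rose.
Hmgcs1: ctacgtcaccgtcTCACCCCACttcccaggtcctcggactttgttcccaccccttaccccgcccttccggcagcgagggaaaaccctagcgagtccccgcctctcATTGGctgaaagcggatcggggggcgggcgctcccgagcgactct
Mvd: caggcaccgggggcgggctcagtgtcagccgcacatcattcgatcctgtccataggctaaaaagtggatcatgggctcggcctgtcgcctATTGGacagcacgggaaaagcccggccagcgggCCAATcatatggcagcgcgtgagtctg
Srebf2: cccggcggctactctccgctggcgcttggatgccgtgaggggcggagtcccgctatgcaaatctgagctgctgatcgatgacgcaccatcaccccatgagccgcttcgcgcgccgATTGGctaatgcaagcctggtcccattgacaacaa
Ebp: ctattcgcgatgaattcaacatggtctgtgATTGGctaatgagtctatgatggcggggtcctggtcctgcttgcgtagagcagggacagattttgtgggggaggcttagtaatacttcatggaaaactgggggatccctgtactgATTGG
Acly: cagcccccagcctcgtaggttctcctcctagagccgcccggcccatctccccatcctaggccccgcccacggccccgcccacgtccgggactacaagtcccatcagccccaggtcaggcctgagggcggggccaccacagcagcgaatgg

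A CCAAT box lay within 250 bases before a start in 16 of the 17 sterol genes that have a promoter entry, in 2 of 7 fatty acid genes and in 1 of 4 export genes. Among all genes tested that have an entry, 41.2% hold it, and among all promoters of that length 33.8% do. The box did not divide the sterol genes by response: 5 of the 6 that rose hold it (Acat2 is the exception), and so do all 11 that were not called. The GC box GGGCGG, a site of Sp1, was in 16 of 17 sterol promoters, against 63.2% of genes tested and 32.7% of all promoters. TCACNCCAC was found in 1 sterol promoter, that of Hmgcs1, against 1.22% of genes tested and 1.05% of all promoters. The E-box CACGTG was in 4 of 17 sterol genes (0 of the 6 that rose and 4 of the 11 not called), 1 of 7 fatty acid genes and 1 of 4 export genes, against 9.89% of genes tested and 6.02% of all promoters. The LXR element, a direct repeat of AGGTCA spaced by 4 bases, was found in 0 member promoters, against 0% of genes tested and 0.0152% of all promoters. Each motif was searched on both strands, overlapping matches counted once per gene, and a gene with several starts counts if any of them holds it. Only exact matches were sought, with any base allowed at N, so variants of a motif such as the sterol regulatory element were not counted. A match describes letters, not binding, and a longer window could hold other matches.

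The squalene steps rose in 2 of 3 genes. Fdft1, squalene synthase, read 40.8 and 43.6 against 46.5 and 49.6 CPM, with no overlap, and narrowly missed the call (0.19 ± 0.07; edgeR adjusted p = 0.0566, with alternatives from 0.0134 to 0.440). It passed under upper-quartile scaling, with a replicate block and without control replicate 2. Sqle, squalene epoxidase, a rate-limiting oxygen-dependent step, read 24.5 and 24.7 against 29.2 and 29.1 CPM, a rise of 1.19-fold (edgeR adjusted p = 0.0373). The replicates of Sqle lay close together, yet it lost the call in DESeq2, with no count filter and without control replicate 1 or either conditioned medium library (adjusted p from 0.0288 to 0.336 over its alternatives). Lss, which closes the ring to lanosterol, rose from 5.63 and 5.82 to 9.03 and 8.38 CPM, 1.51-fold on 83 to 151 counts per library (0.60 ± 0.15; edgeR adjusted p = 0.00959). Lss was likewise not called by DESeq2 or when either conditioned medium library was left out (adjusted p from 0.00346 to 0.139 over its alternatives).

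From lanosterol onward 1 of 8 genes was called. Msmo1, the oxygenase that removes methyl groups from the sterol ring, had the smallest p of the sterol arm after Srebf2 (edgeR adjusted p = 1.21e-05). It lies at chr8:64718123-64733578 on the minus strand and read 23.9 and 23.8 CPM in control against 37.0 and 35.8 CPM in conditioned medium, a rise of 1.53-fold (95% interval 1.37 to 1.71). Nsdhl, the dehydrogenase that acts next, read 10.5 and 9.52 against 10.2 and 13.3 CPM. Hsd17b7, the keto-reductase of the same cycle, read 12.7 and 15.5 against 16.7 and 13.4 CPM. Neither was called and in both the groups overlapped. The conditioned medium libraries disagreed for both genes, and for Hsd17b7 the control libraries did too.

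Cyp51, the lanosterol demethylase, read 22.4 and 19.0 against 23.2 and 24.3 CPM (0.20 ± 0.10; edgeR adjusted p = 0.165). Without control replicate 1 it was called at 0.33, so its result turned on that library (adjusted p from 0.0194 to 0.621 over its alternatives). Tm7sf2, a sterol reductase, had 20 and 39 control counts and 36 and 55 conditioned medium counts, and its log2 fold change of 0.50 ± 0.29 was not called. Without control replicate 2 Tm7sf2 stood at 1.07 and was called, and its alternatives spanned 0.09 to 1.07 with adjusted p from 0.0290 to 0.897.

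None of the last enzymes of the route was called. Sc5d, a sterol desaturase, read 24.4 and 24.4 against 24.3 and 24.4 CPM (fold change 0.997, 95% interval 0.883 to 1.12). Dhcr7, the reductase that completes cholesterol, had 99 and 96 counts in control and 97 and 121 in conditioned medium (1.03, 0.823 to 1.29). Ebp, the sterol isomerase, was the only sterol gene with both conditioned medium libraries below both controls, at 7.05 and 8.08 against 6.64 and 6.71 CPM (-0.18 ± 0.15; edgeR adjusted p = 0.484). The interval of Dhcr7 leaves room for a rise as large as those called in genes with more counts, such as Srebf1 or Sqle.

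Of the control and transport genes Srebf2 rose and Insig1 and Stard4 were not called. Srebf2, at chr15:82147269-82205379, read 78.8 and 79.4 against 106 and 107 CPM, a rise of 1.35-fold (0.43 ± 0.05; edgeR adjusted p = 5.30e-06). The control pair and the conditioned medium pair each agreed closely and were well apart. Insig1, itself a standard SREBP target, read 52.2 and 47.5 against 48.3 and 51.8 CPM, overlapping completely (fold change 1.01, 95% interval 0.914 to 1.11). On 669 to 934 counts per library, that interval lies below the 1.35-fold estimate for Srebf2, though the difference between the genes was not tested. Stard4, a carrier that moves sterol between membranes, read 23.0 and 22.0 against 23.4 and 24.7 CPM (1.07, 0.946 to 1.22).

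**Figure D2:**
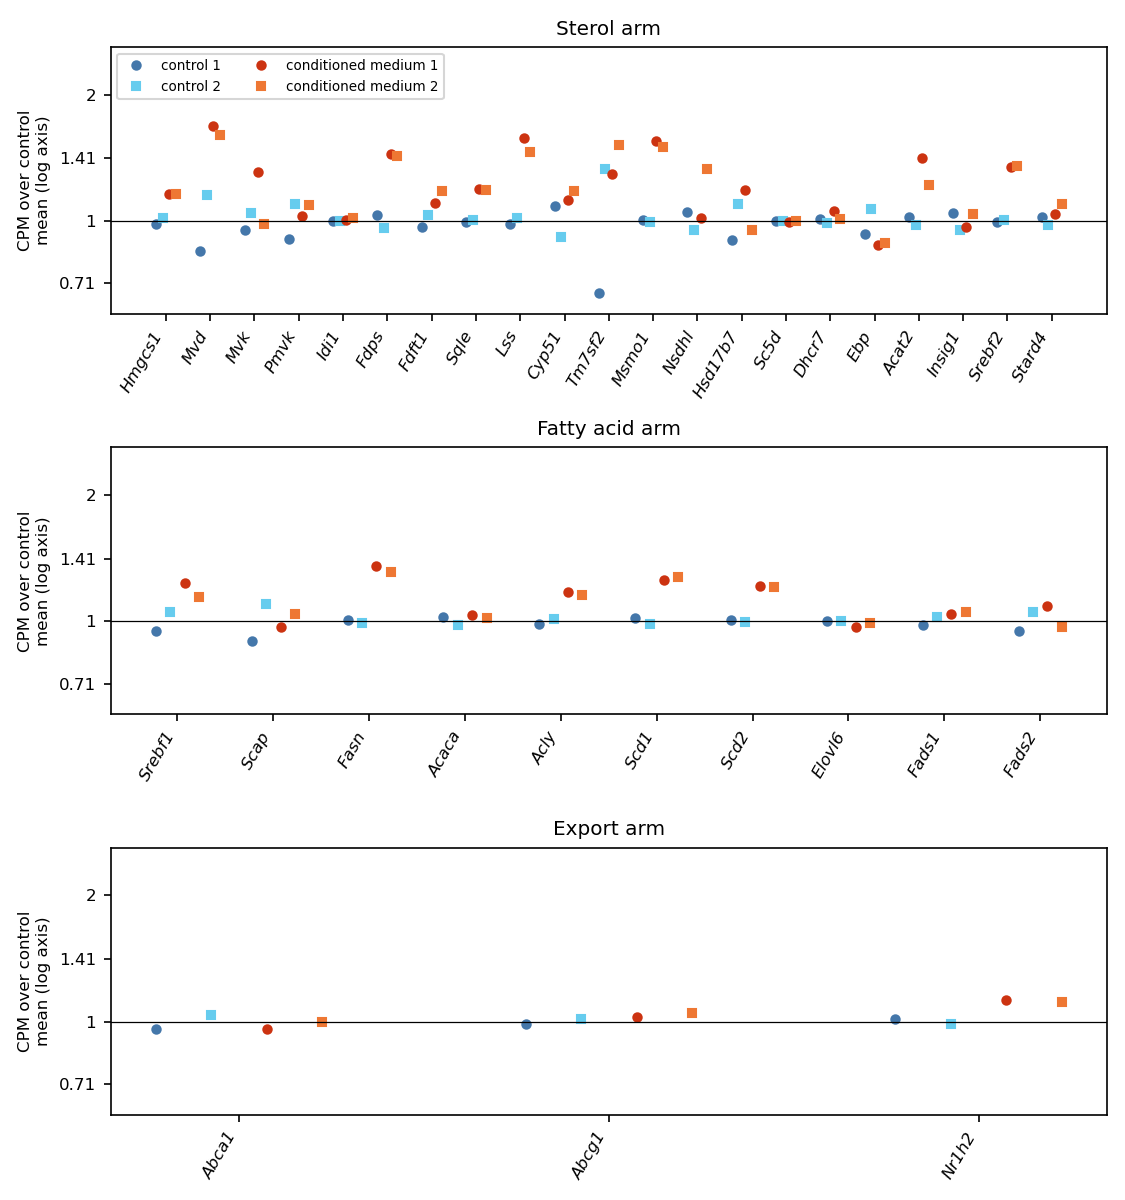
CPM of each of the 34 members tested in each library, divided by its control mean (y axis, log scale; 1 is the control mean), in 1 panel per arm; blue points are control and red or orange points conditioned medium libraries. Both conditioned medium points lie above both control points in 13 of 21 sterol and 6 of 10 fatty acid genes, and the single low point of Tm7sf2 is control replicate 1.

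In the fatty acid arm 1 of 2 control genes (Srebf1), 2 of 3 genes that supply and build chains (Acly and Fasn, not Acaca) and 2 of 5 desaturation and elongation genes (Scd1 and Scd2) rose. The steps were not tested against each other. Srebf1, encoding SREBP1, read 42.2 and 46.8 against 54.7 and 50.7 CPM, 1.18-fold higher (0.24 ± 0.07; edgeR adjusted p = 0.0182). Srebf1 lost the call in DESeq2 and without control replicate 1 or either conditioned medium library (adjusted p from 4.17e-04 to 0.251 over its alternatives). Scap, the escort of both SREBPs, read 18.6 and 22.8 against 20.1 and 21.6 CPM, with overlapping groups (fold change 1.01, 95% interval 0.869 to 1.17). Gene counts do not separate the SREBP1a and SREBP1c transcripts of Srebf1.

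Acly, which splits citrate to give cytosolic acetyl-CoA to both pathways, read 135 and 139 against 160 and 158 CPM, 1.16-fold higher (edgeR adjusted p = 0.00251), and lost the call without either conditioned medium library (adjusted p from 3.47e-05 to 0.0933 over its alternatives). Acaca, the acetyl-CoA carboxylase that commits carbon to fatty acids, was not called, at 85.4 and 81.8 against 86.6 and 85.2 CPM (1.03, 95% interval 0.951 to 1.11). Fasn, fatty acid synthase, at chr11:120805958-120825166, read 197 and 193 against 264 and 256 CPM. That 1.33-fold rise (0.42 ± 0.04; edgeR adjusted p = 1.48e-06) had the smallest p of all 36 members, and both libraries of each group agreed closely.

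Scd1 and Scd2, the stearoyl-CoA desaturases that put the double bond into saturated chains, lie side by side on chromosome 19 (44394450 to 44407709 and 44293676 to 44306864). Scd1 read 194 and 187 against 239 and 243 CPM, 1.26-fold higher (0.34 ± 0.04; edgeR adjusted p = 1.77e-05). Scd2 read 657 and 650 against 794 and 788 CPM, 1.21-fold higher (0.28 ± 0.04; edgeR adjusted p = 7.86e-05). Per exon length Scd2 stood 3.04 and 3.11 times above Scd1 in control and 2.98 and 2.91 times in conditioned medium, so the pair kept nearly the same proportion. Of 50-base stretches of their transcripts, 4.56% of Scd1's and 3.97% of Scd2's occur in another gene, so few reads could be exchanged between them.

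Elovl6, which lengthens palmitate, read 35.5 and 35.5 against 34.4 and 35.1 CPM, a small step down that was not called (0.980, 95% interval 0.884 to 1.09). Fads1 and Fads2, neighbouring desaturases of polyunsaturated fatty acids, also on chromosome 19, were not called. Fads1 read 193 and 202 against 205 and 208 CPM (1.05, 0.981 to 1.12). Fads2 read 40.1 and 44.3 against 45.8 and 41.0 CPM (1.02, 0.921 to 1.14), with overlapping groups. On 2842 to 3754 counts per library for Fads1, the upper bound of its interval lies below the estimates for Scd1, Scd2 and Fasn.

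No export gene was called, and the intervals of both pumps were narrow. Abca1, the pump that loads cholesterol onto lipid-poor apolipoprotein, at chr4:53030789-53159988, read 22.2 and 24.0 against 22.2 and 23.0 CPM, with overlapping groups (-0.03 ± 0.09; edgeR adjusted p = 0.866; 95% interval 0.862 to 1.11-fold). Abcg1, the pump that passes cholesterol to mature high-density lipoprotein, at chr17:31057694-31117984, read 171 and 175 against 178 and 181 CPM (0.05 ± 0.05; edgeR adjusted p = 0.479; 0.972 to 1.11-fold). Both conditioned medium libraries of Abcg1 were slightly above the controls, by less than the test resolves. Per length Abcg1 stood 10.9 and 10.4 times above Abca1 in control and 11.4 and 11.2 times in conditioned medium.

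Of the LXR genes, Nr1h2, which encodes LXRβ, read 27.9 and 27.1 against 30.9 and 30.6 CPM, apart in all libraries but not called (0.16 ± 0.08; edgeR adjusted p = 0.168, unadjusted 0.0495). Nr1h3, encoding LXRα, had 7 and 6 control counts and 9 and 14 conditioned medium counts. Mylip, an LXR target whose ubiquitin ligase product degrades lipoprotein receptors, had 5 and 2 against 2 and 3 counts. Both were below the count filter and no change could be read for them at this depth. At 3 counts, the limit that a count of 0 allows, the libraries resolve 0.167 to 0.217 CPM (counting error only).

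**Figure D3:**
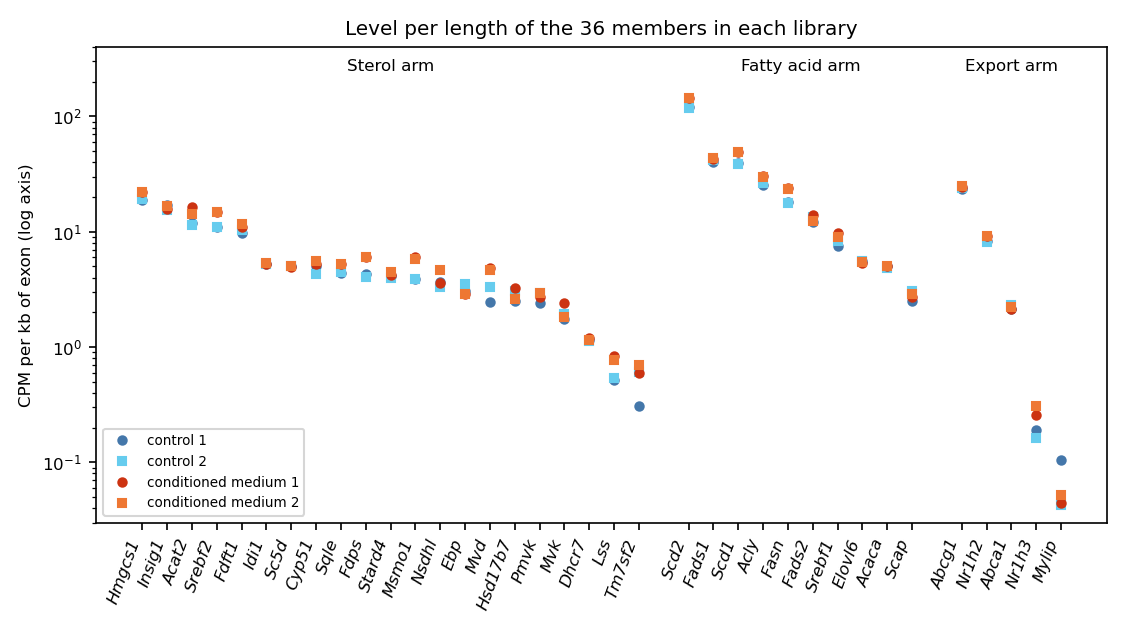
Level per length (y axis, CPM per kb of exon, log scale) of all 36 members in each library, ordered within each arm by the control mean; blue points are control and red or orange points conditioned medium. Scd2 stands highest and Mylip lowest, and in the middle of the sterol arm neighbouring genes overlap.

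Levels per length, CPM over the kb of exon in GENCODE M21, put Scd2 highest of all members (119.6 ± 0.902 in control, mean ± SD, n = 2). Fads1 (41.0 ± 1.27) and Scd1 (38.9 ± 0.895) came next, their control libraries close but not overlapping, followed by Acly (25.9) and Abcg1 (23.7). In the sterol arm the order began with Hmgcs1 (18.9), Insig1 (16.1), Acat2 (11.6) and Srebf2 (11.0), and ended with Dhcr7 (1.14), Lss (0.531) and Tm7sf2 (0.457). Control libraries of neighbours in that order overlapped from Sc5d through Cyp51 to Sqle, from Nsdhl through Ebp, Mvd and Hsd17b7 to Pmvk, for Fdps and Stard4, and for Lss and Tm7sf2. Srebf2 stood 1.47 and 1.33 times above Srebf1 per length in control and 1.52 and 1.66 times in conditioned medium. The exon lengths pool all annotated transcripts, and which of them these cells use was not measured.

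Calls went with depth as well. Among the sterol genes the 8 called had a median level of 28.5 CPM and the 13 not called 14.6 CPM, and in the fatty acid arm the 5 called had 216 CPM and the 5 not called 42.8 CPM. Insig1, Acaca, Fads1 and Abcg1 were not called although each had at least 669 counts in every library.

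Other genes of the same pathways, from 3 lists chosen for their function, were read beside the members. Of 20 further sterol synthesis and control genes 3 rose (15%) and 2 fell, against 8.53% higher and 8.23% lower over all genes tested. Por, the reductase that feeds electrons to Cyp51 and Sqle, rose 1.19-fold, and Rnf145, a ubiquitin ligase of the endoplasmic reticulum, 1.11-fold. Pdss1, which makes the ubiquinone side chain, fell from 6.30 and 7.33 to 3.68 and 5.10 CPM (-0.61 ± 0.19; edgeR adjusted p = 0.0291). Acat1, the mitochondrial thiolase, fell by 0.24 ± 0.06 on the log2 scale, opposite to the cytosolic Acat2. Por lost its call without conditioned medium replicate 2, Rnf145 and Acat1 under DESeq2 or when either conditioned medium library was left out, and Pdss1 in those and without control replicate 2 (adjusted p up to 0.0855, 0.222, 0.179 and 0.304). The list's median was 0.03.

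The next list held 24 tested genes of fatty acid and lipid metabolism outside the arm, most of them for synthesis but breakdown genes among them. Of these 6 rose (25%) and 0 fell in edgeR, against 8.53% higher and 8.23% lower over all genes tested. At an unadjusted p under 0.05 also 0 were lower, and the median was 0.08. Dgat2, which makes triglyceride for storage droplets, doubled from 5.56 and 5.82 to 11.0 and 11.8 CPM (2.01-fold; edgeR adjusted p = 4.78e-05). Agpat2 and Dgat1, acyltransferases of the same glycerolipid route, rose by log2 fold changes of 0.49 and 0.36 (edgeR adjusted p = 0.0214 and 0.0478). Both were not called by DESeq2 or when either conditioned medium library was left out, Agpat2 also without control replicate 2, and Dgat1 also without control replicate 1 and in 3 further settings (adjusted p up to 0.232 and 0.419). Among the 6 was Cpt1a, which admits fatty acids to mitochondria for oxidation, at 147.5 and 147.1 against 184 and 186 CPM (1.26-fold; edgeR adjusted p = 2.98e-05), while the lipase gene Pnpla2 was not called (1.04-fold; edgeR adjusted p = 0.593). Both were named after their values were seen.

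Of 21 tested genes of sterol transport and LXR function 6 rose (28.6%) and 0 fell, against the same shares over all genes, 8.53% and 8.23%. Again 0 were lower at an unadjusted p under 0.05, and the median was 0.09. Gramd1a, which carries sterol from the plasma membrane to the endoplasmic reticulum, rose from 72.2 and 82.9 to 104 and 102 CPM (1.32-fold; edgeR adjusted p = 6.75e-05). Abca7, a relative of Abca1, rose from 37.8 and 36.3 to 51.1 and 46.3 CPM (1.31-fold; edgeR adjusted p = 5.19e-04). Gramd1a and Abca7 kept their calls in all alternatives.

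**Figure D4:**
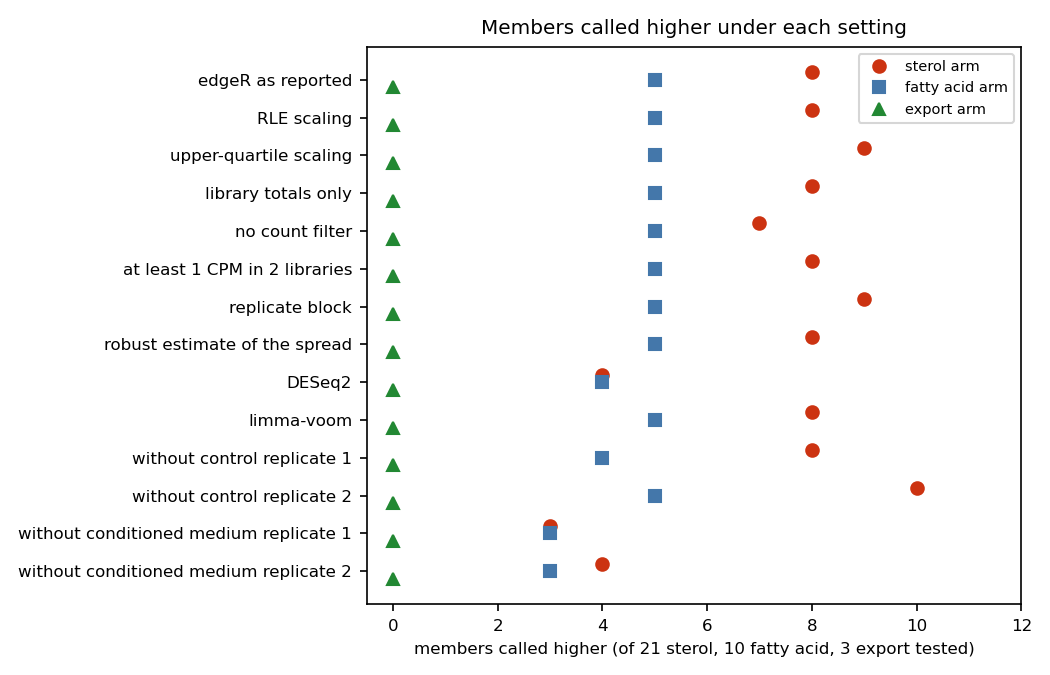
Number of members called higher (x axis) in the sterol (circles), fatty acid (squares) and export (triangles) arms under the reported edgeR test and each of 13 alternatives (y axis). The sterol count runs from 3 to 10 and the fatty acid count from 3 to 5, lowest without a conditioned medium library, and the export count is 0 throughout.

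Some members share sequence with other genes, which the counting could have split. Of the 50-base stretches of Acat2's transcripts 39.1% occur in Acat3, a copy counted at 78.3 to 94.8 CPM that was not called. The same share was 26.5% for Fdft1, most of it with Ctsb, a lysosomal protease gene at 852 to 979 CPM that was called higher by 0.16. It was 30.4% for Acaca, 26.2% for Fdps, 25.3% for Idi1 and 11.6% for Hmgcs1, mostly with predicted genes, so these values are less certain than those of Srebf2, Fasn or Msmo1, at under 1% each. The library kit does not mark strand, so overlapping genes on opposite strands cannot be told apart either.

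The libraries held 13815695 to 18005840 counts, the largest being conditioned medium replicate 2. Of 12 endothelial markers 11 were tested, with Pecam1 and Cdh5 the highest and Cldn5 at 0 or 1 counts, and 2 rose and 2 fell. Eng and Egfl7 rose, by log2 fold changes of 0.321 and 0.209. Kdr and Emcn fell, with log2 fold changes of -0.156 and -0.133. Of the 11 tested, 36.4% were thus called, against 16.8% over all genes tested. The summed level of the 12 endothelial markers was 7108 to 7119 CPM in control and 7185 to 7256 CPM in conditioned medium. Of 12 macrophage markers 0 of 3 tested were called by edgeR, 0 also at an unadjusted p under 0.05, and 3 (Adgre1, Mrc1 and Tyrobp) had 0 counts in all libraries. Their sum was 231 to 261 CPM in control and 253 to 261 CPM in conditioned medium, nearly all of it Cd68. Smooth muscle markers summed to 229 to 239 and 242 to 244 CPM, nearly all Smtn, with 0 of 3 called, and fibroblast markers to 33.9 to 36.8 and 40.7 to 41.4 CPM, with Pdgfra of 3 tested called higher. The part of these small shifts in the members' values was not tested. Mitochondrially encoded protein genes took 4.21% and 4.45% of counts in control and 4.04% and 4.08% in conditioned medium. In bulk libraries fewer cells of a kind and less RNA per cell cannot be told apart.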

How the data were processed

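Total RNA of 4 mAEC libraries (2 control, 2 conditioned medium) was sequenced with a TruSeq RNA kit, per the labels' protocols. The authors deposited raw counts per gene, in 27179 rows named by Entrez identifiers. Per the submitters' processing notes, STAR 2.5.2b was used with featureCounts and Subread (1.4.6-p1), on mm10; settings, annotation and the handling of multi-mapped reads are not stated. Symbols came from RefSeq genes of GRCm38.p6, which matched 25275 rows; the 1904 unmatched rows held 6.31% of counts and stayed in the fit without names.

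The test was that of edgeR 4.0.16, run in R 4.3.3: filterByExpr (minimum count 10, total 15), TMM scaling, and a two-sided quasi-likelihood test without a replicate block, with Benjamini-Hochberg adjustment over 13897 genes. Residual degrees of freedom were 2. The SE of a log2 fold change is its size divided by the root of F, and 95% intervals use the moderated degrees of freedom. The procedure was also run on data simulated from the fitted trend of the spread. That run checks the code and says nothing on the spread of these libraries. Members and lists were chosen with earlier results of these data known. All 36 members are named. Of the other genes, up to 3 called in each direction per list are named, except items not reported here; Acat3, Ctsb, Cpt1a, Pnpla2 and single markers were named after their values were seen. Alternatives used DESeq2 1.42.0, limma-voom (limma 3.58.1), other scalings and filters, a block, a robust spread and each library left out. Promoters came from RefSeq (28 of 36 members matched). In 29 of their 35 promoter entries the bases just after the start lay in a GENCODE M21 transcript of the gene.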

Additional observations from a re-analysis of the deposited data

How the results depend on the processing

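Of 34 members tested, 0 reversed a call in any of 13 alternatives, 6 were called in all of them, 7 lost the call at least once and 3 (Cyp51, Fdft1 and Tm7sf2) gained one. DESeq2 called 918 genes in all, against 2330, and 4 sterol genes, all higher. Upper-quartile scaling gave a sterol median of 0.22. With each library left out in turn, all genes called ran from 569 to 3107, sterol genes called (all higher) from 3 to 10 with a median of 0.14 to 0.24, and fatty acid genes called (all higher) from 3 to 5 with a median of 0.12 to 0.20. The fits without a conditioned medium library had 1 residual degree of freedom, all from the control pair, and assume that the lone library varies like it. Over well-counted genes the controls differed more from each other (SD of the log2 ratio 0.13) than the conditioned medium pair (0.10), against 0.20 to 0.21 between groups. The export arm kept 0 calls under every alternative, with medians from 0.03 to 0.07.

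Both groups number their replicates 1 and 2, but nothing says that a number marks a shared culture, and deviations of same-numbered libraries had a correlation of -0.05. With the replicate block 2671 genes were called in all, with 9 sterol, 5 fatty acid and 0 export genes. The replicate block changed 1 member's call, Fdft1, which it gained. The sign of Abca1, Fads2, Hsd17b7, Insig1, Mvk, Pmvk, Sc5d and Scap, all not called, changed in at least 1 alternative. Depth limits Mvk, Pmvk, Tm7sf2, Dhcr7 and Ebp, whose intervals are wide, and Nr1h3 and Mylip, which could not be tested.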
